A study of Mus musculus with 12 samples.

Results

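The respiratory chain passes electrons from NADH and succinate to oxygen through complexes I to IV of the inner mitochondrial membrane, and complex V, the ATP synthase, uses the resulting proton gradient to make ATP. Most of their subunits are encoded in the nucleus, together with assembly factors that help to build the complexes. Iron-sulfur clusters and heme carry the electrons, so the chain depends on iron, and under low oxygen the hypoxia-inducible factor (HIF) is known to swap some subunits and to divert pyruvate away from mitochondria. The genes described here are those whose symbol starts with Nduf, Sdha, Sdhb, Sdhc, Sdhd, Uqcr, Cox4, Cox5, Cox6, Cox7, Cox8 or Atp5. They were 91 of the 17097 genes measured, with 35 genes of complex I by name, 4 of complex II, 7 of complex III, 17 of complex IV, 17 of complex V and 11 assembly factors (Ndufaf and Sdhaf genes). Ndufa4 and its paralog Ndufa4l2 count here with complex I by name, although the Ndufa4 protein is now placed in complex IV. Ndufs5-ps is listed as a transcribed pseudogene, and its probe set may also take up signal of its parent gene.

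The RNA came from primary mouse embryonic fibroblasts (MEFs) of e14.5 embryos of a C57Bl/6 x 129Sv (F1) background, at passage 4. Wild-type MEFs were compared with CBP/p300 null MEFs (dKO), which carried homozygous conditional alleles for CBP and p300, lysine acetyltransferases that serve as coactivators of HIF and many other factors. All cells, wild type included, received Cre recombinase by adenovirus at a multiplicity of infection of 100 in 3% oxygen, and stood in normoxia for 24 h before the treatment. They were then given 100 µM 2,2'-dipyridyl (DP), an iron chelator that stabilises HIF, or ethanol for 3 h. Each line gave 1 array per treatment, from lines 3, 4 and 5 for wild type and lines 1, 5 and 6 for dKO, so there were 4 groups of 3 arrays. The labels number the lines but do not say whether they came from separate embryos.

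Array medians over all probe sets lay between 3.87 and 3.98 log2. With 3 arrays per group, precision is limited by their number. Crebbp, which encodes CBP, lay between 8.07 and 8.37 in wild-type and between 7.02 and 7.68 in dKO ethanol arrays, and between 8.21 and 8.54 against 7.51 and 7.69 under DP. The position of this probe set in the gene was not used here, so Crebbp is no check of the deletion. Ep300 was not analysed here. Xist, an RNA of the inactive X in females, lay at 10.3 or above on all wild-type arrays and at 5.32 or below on all dKO arrays, so genotype and the sex of the lines cannot be told apart. All 10 fibroblast markers were measured, with array medians between 10.4 and 10.7 on wild-type arrays and between 7.37 and 8.32 on dKO arrays; all 10 were lower in dKO in both treatments. All 4 measured smooth muscle and pericyte markers were lower as well, in both treatments, by a median of -1.77 in ethanol. For actin, the 3' probe set exceeded the 5' probe set, a gap that widens as RNA degrades, by 0.23 to 0.25 log2 in wild-type ethanol, 0.28 to 0.38 in wild-type DP, 0.40 to 0.45 in dKO ethanol and 0.48 to 0.60 in dKO DP arrays. For Gapdh the same gap was -0.03 to 0.15 in wild-type ethanol and 0.04 to 0.17 in wild-type DP arrays. It was 0.19 to 0.21 in dKO ethanol and 0.10 to 0.19 in dKO DP arrays, so Gapdh did not repeat the order of groups seen for actin. The part of these differences in the results below was not tested. In cultures measured as bulk RNA, fewer cells of a type and less RNA per cell cannot be told apart. In ethanol, wild-type line 5 and dKO line 1 gave the arrays with the lowest mean correlation to their own group (0.990 and 0.989 over all genes, against 0.992 to 0.997 on the other arrays; called the deviating arrays), and some results are also given without them.

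Changes are differences of log2 values, and the value after ± is limma's standard error with n = 3 arrays per group. A gene is said to rise, fall or differ where its Benjamini-Hochberg adjusted p over all 17097 genes was under 0.05. Of the 91 genes, 88 had all 4 group means above 3.92, the highest 95th percentile of the nonspecific-background control probe sets on any array. The exceptions were Cox7b2, a testis isoform, and Cox8b, a muscle isoform, at or below that level in all groups, and Cox4i2 in dKO.

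The first question was whether 3 h of iron chelation changes these genes in wild-type cells. Nearly all stayed close to their ethanol level: 2 rose and 1 fell of 91, against 4.73% of all genes called. The genes that rose were Ndufa4l2, a paralog of Ndufa4 known as a HIF target that lowers complex I activity, and Cox7a1, the heart and muscle isoform of complex IV subunit VIIa. The gene that fell was Ndufaf4, an assembly factor of complex I. No subunit of complex II, III or V passed, and the median change of the 91 genes was -0.07, against -0.03 over all genes.

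Ndufa4l2 lay at 6.43, 6.67 and 7.65 in ethanol and at 7.85, 8.02 and 8.34 with DP in wild-type lines 3, 4 and 5. Line 5 in ethanol, one of the deviating arrays, was the highest of the ethanol values, and all DP values were above all ethanol values. The rise was 1.15 ± 0.26, or 2.22-fold (limma adjusted p = 0.0196). The call was lost on leaving out ethanol line 3, ethanol line 4, DP line 4 or DP line 5 (limma adjusted p = 0.0803, 0.0875, 0.0647 and 0.105). It was also lost in a fit of only the wild-type arrays (limma adjusted p = 0.0691), which takes no spread from the dKO arrays. Without the 2 deviating arrays the rise was 1.52 (limma adjusted p = 0.000138). Ndufa4, whose product it resembles, changed by 0.01 ± 0.09 in wild type and by 0.00 ± 0.09 in dKO.

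Cox7a1 lay at 5.12, 5.14 and 5.23 in ethanol and at 5.86, 6.10 and 6.08 with DP in wild-type lines 3, 4 and 5. The groups did not overlap, and the rise was 0.85 ± 0.12, or 1.80-fold (limma adjusted p = 0.000881). Its ubiquitous counterpart Cox7a2 changed by -0.05 ± 0.09. Among 7 skeletal muscle and 5 heart muscle markers measured, none changed with DP in either genotype. In every group 3 to 4 of the 7 and 4 to 5 of the 5 were at or below the background level, where a change could not be seen.

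Ndufaf4 lay at 8.19, 8.33 and 8.20 in ethanol and at 7.81, 7.74 and 7.63 with DP in wild-type lines 3, 4 and 5. Every DP value was below every ethanol value, and the fall was -0.51 ± 0.09 (limma adjusted p = 0.00409). Its second probe set changed by -0.31 ± 0.29, and with the mean of both probe sets the call was lost (adjusted p = 0.246). Sdhaf1, an assembly factor that helps to insert iron-sulfur clusters into complex II, came next in size with -0.39 ± 0.11 (adjusted p = 0.0736, and 0.0423 without the 2 deviating arrays).

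**Figure D1:**
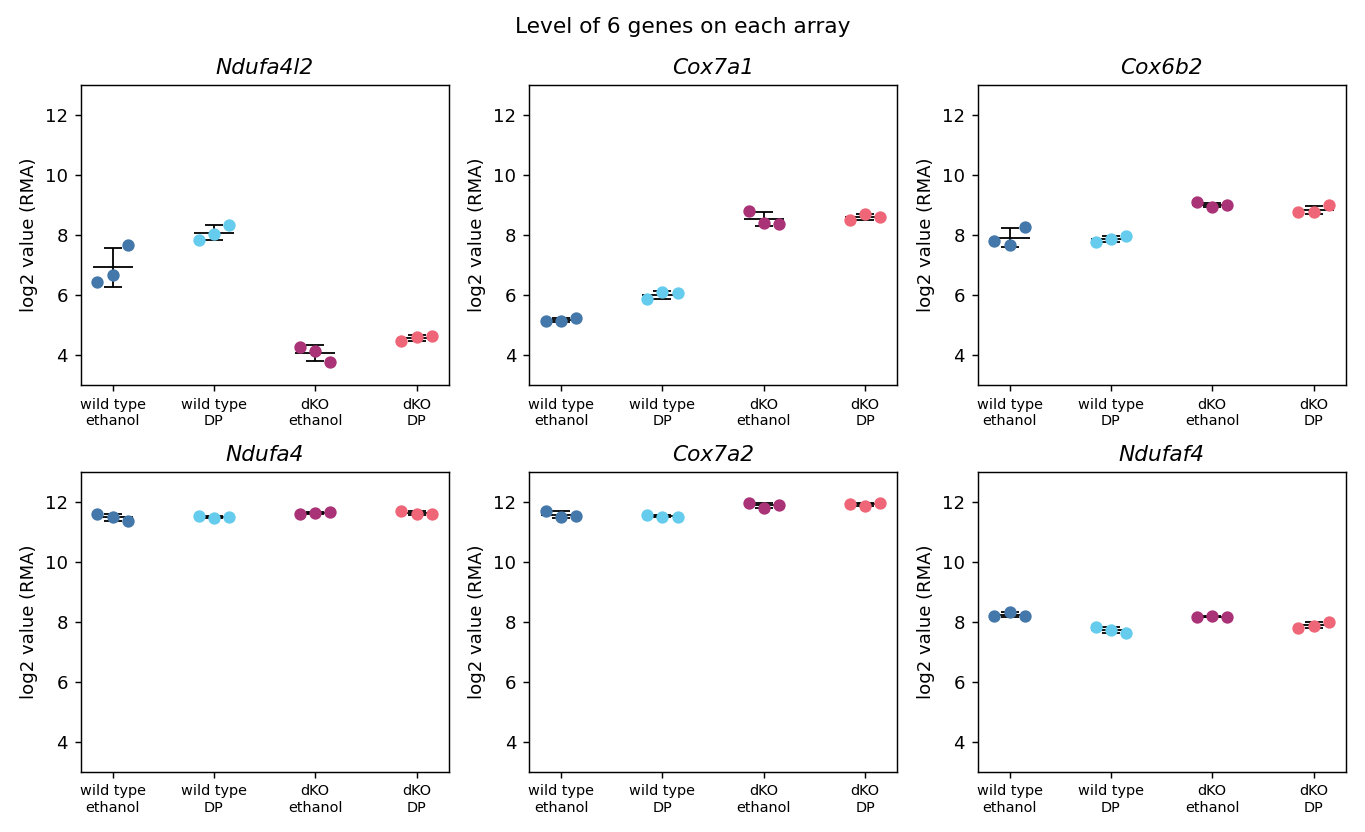
Log2 values of 6 genes (vertical axis) on each array, by genotype and treatment; points are arrays, the wide bar is the mean of 3 arrays and the error bars are 1 SD. Ndufa4l2 is lower and Cox7a1 and Cox6b2 are higher on all dKO than on all wild-type arrays, while Ndufa4 stays between means of 11.48 and 11.63.

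In dKO cells the same treatment called none of the 91 genes, against 1.5% of all genes (1.01% that rose and 0.491% that fell). Over all genes the split was 1.17% and 0.252% with cyclic loess and 1.14% and 0.275% with median centring, and with both scalings none of the 91 was called. At an unadjusted p under 0.05 there were 8 of 91, against 14.1% of all genes, and 1 gene, Ndufv3, was called by limma with an intensity trend. The median change was -0.10, against -0.05 over all genes. Without the ethanol array of dKO line 1 it was -0.06, against -0.02 over all genes. The largest changes were those of the complex I assembly factor genes Ndufaf6 (-0.53 ± 0.13, limma adjusted p = 0.082) and Ndufaf5 (-0.38 ± 0.15), of Sdhaf1 (-0.41 ± 0.11) and of Ndufa4l2 (0.50 ± 0.26). Ndufa4l2 lay at 4.27, 4.14 and 3.76 in ethanol and at 4.45, 4.59 and 4.64 with DP in dKO lines 1, 5 and 6. These values did not overlap, and the ethanol value of line 6 was below the background level of 3.92. Cox7a1 lay at 8.80, 8.41 and 8.38 in ethanol and at 8.48, 8.70 and 8.60 with DP, with overlap, and changed by 0.07 ± 0.12. Ndufaf4 lay at 8.15, 8.18 and 8.15 in ethanol and at 7.81, 7.87 and 7.99 with DP, a change of -0.27 ± 0.09 (limma adjusted p = 0.202). Ndufv3, an accessory subunit of complex I picked after its values were seen, changed by 0.28 ± 0.09 in wild type and 0.32 ± 0.09 in dKO (limma adjusted p = 0.10 and 0.108). Without the 2 deviating arrays it passed in both (adjusted p = 0.0391 and 0.0451), as it did with an intensity trend (adjusted p = 0.0238 and 0.0259). It did not pass in the other alternatives. Among them were a block for MEF line (limma adjusted p = 0.175 and 0.163) and median centring (limma adjusted p = 0.335 and 0.202). Another was a fit of only the arrays compared (limma adjusted p = 0.203 and 0.291).

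The difference between the DP responses of dKO and wild type was called for none of the 91 genes, against 0.562% of all genes (0.0468% with a larger and 0.515% with a smaller value in dKO), and 1 of 91, Cox7a1, had an unadjusted p under 0.05, against 5.92% of all genes. Its response was smaller in dKO by -0.78 ± 0.17, which did not pass (limma adjusted p = 0.0934). That of Ndufa4l2 differed by -0.65 ± 0.36 (limma adjusted p = 0.934) and that of Ndufaf4 by 0.24 ± 0.13 (limma adjusted p = 0.906). These intervals are wide beside the wild-type changes themselves, and a p above the threshold does not show equal responses. The dKO values of Ndufa4l2 also lay close to the background level, where a change may be understated.

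**Figure D2:**
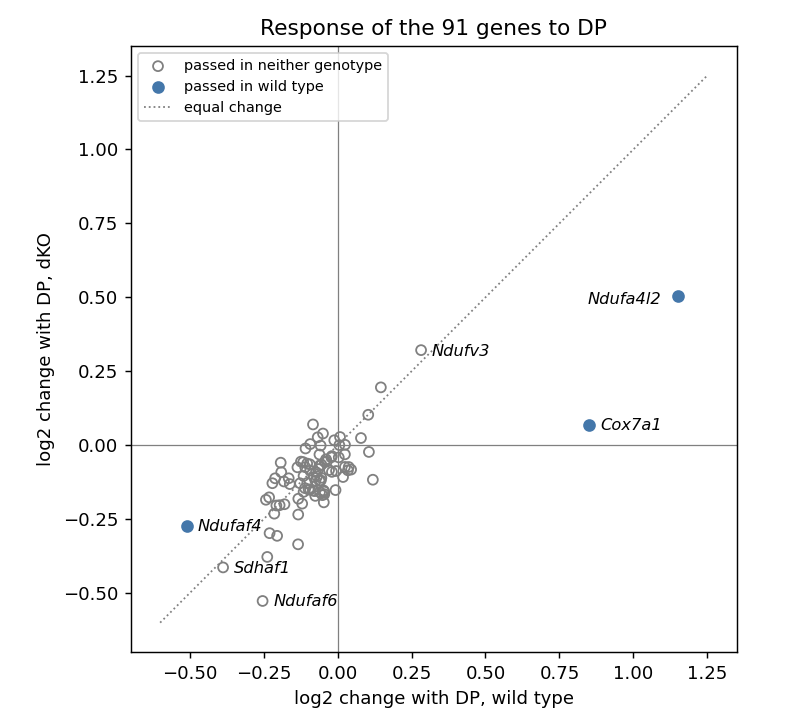
Log2 change with DP in wild-type (horizontal axis) and dKO cells (vertical axis) for each of the 91 genes; filled points passed the test in wild type and the dotted line marks equal change. Most genes lie slightly below 0 on both axes, with Ndufa4l2 and Cox7a1 apart on the wild-type axis at 1.15 and 0.85.

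Below the single calls, the genes lay slightly low with DP. In wild type 18 of 91 had a positive change, against 43.9% of all genes, and in dKO 14 of 91, against 39.7%. By line, the median DP minus ethanol value of the 91 genes was -0.08, -0.01 and -0.16 in wild-type lines 3, 4 and 5. In dKO lines 1, 5 and 6 it was -0.20, -0.04 and -0.09. The lowest values belong to the lines of the 2 deviating ethanol arrays, wild-type line 5 and dKO line 1. The median over all genes was -0.02, -0.03 and -0.05 in the wild-type and -0.13, -0.0049 and -0.03 in the dKO lines. In wild type 3 of 91 genes were higher on all DP arrays without overlap, against 8.97% of all genes, and in dKO 2 of 91, against 6.32%. In wild type 18 of 91 genes were lower on all DP arrays without overlap, against 13.6% of all genes, and in dKO 29 of 91, against 14.4%. Assembly factors lay lowest, with medians of -0.20 in wild type and -0.23 in dKO. The 7 measured subunits that bind iron-sulfur clusters had medians of -0.10 and -0.17 and no call in either genotype. The low values with DP were not particular to the chain. The 73 mitochondrial ribosomal protein genes had medians of -0.17 in wild type and -0.21 in dKO, with 8 and 5 positive changes. For 13 citrate cycle enzyme genes the medians were -0.09 and -0.13.

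Genes around the chain were counted by list. Of 12 measured genes known to link HIF with respiration, 7 rose and 1 fell in wild type and 6 rose in dKO, against 3.05% of all genes that rose and 1.67% that fell in wild type. Pdk1, whose kinase shuts off pyruvate dehydrogenase, rose by 1.46 ± 0.11 in wild type and 2.03 ± 0.11 in dKO, and Higd1a, a hypoxia-induced partner of complex IV, by 1.20 ± 0.10 and 1.30 ± 0.10. Lonp1, the matrix protease known to degrade Cox4i1 protein under hypoxia, changed by 0.45 ± 0.13 and 0.31 ± 0.13 and did not pass. None of 13 citrate cycle enzymes and none of 16 genes for cytochromes c and coenzyme Q passed in either genotype. Of 20 genes of iron-sulfur and heme synthesis 2 rose and 1 fell in wild type and 1 fell in dKO. Slc25a28, which encodes a mitochondrial iron importer, fell by -0.59 ± 0.11 and -0.52 ± 0.11 in the 2 genotypes. Of 73 mitochondrial ribosomal protein genes 1 fell in wild type and none passed in dKO. Cox10, a heme A synthesis enzyme gene on the list of other assembly factors, fell by -0.47 ± 0.10 and -0.49 ± 0.10 as the only call among 32.

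The second question was how the genotypes differ. In ethanol, 35 of the 91 genes were higher and 2 were lower in dKO, against 19.5% of all genes that were higher and 14.1% that were lower, and 33.6% called in either direction. Under DP 26 were higher and 4 were lower, against 18.5% and 16.9% of all genes, and 35.4% in either direction. In this fit the higher calls were a larger share, and the lower calls a smaller share, of these genes than of all genes. The median difference was 0.17 in ethanol and 0.18 under DP, against -0.01 over all genes in each. With the brightest probe set standing for each gene, most of these differences were small. By that probe set 3 genes stood far from the rest: Cox7a1 and Cox6b2 on the high side and Ndufa4l2 on the low side.

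In all, 23 genes were higher in dKO in both treatments, against 15.6% of all genes, and 2 genes, Ndufa4l2 and Cox6a2, were lower in both, against 11.9%. On all 3 dKO ethanol arrays 42 genes lay above all wild-type ethanol arrays, against 21.2% of all genes, and 4 lay below, against 18.8%. Under DP these counts were 59 and 7, against 28.4% and 25.3%. The ethanol and DP arrays come from the same lines, so the treatments do not give independent lines. In ethanol the count of called genes was 21 without the wild-type array of line 4, and under DP it was 19 without the wild-type array of line 3, against 37 and 30. These fits have fewer arrays, and the share of all genes called in them is not given here. The count was 20 in ethanol after median centring of each array, with 19.8% of the 91 genes higher and 2.20% lower. Under the same setting 16.7% of all genes were higher and 14.7% lower. It was 17 in a fit of only the ethanol arrays, with 17.6% higher and 1 gene lower, against 14.6% and 11.1%. In these ethanol fits the share of higher calls was close to that of all genes, and the share of lower calls was smaller. Under DP, median centring gave 29.7% higher and 2.20% lower of the 91 genes, against 19.6% and 13.8% of all genes. A fit of only the DP arrays gave 41.8% and 3.30%, against 23.7% and 19.7%. Cyclic loess turned the balance of all genes, to 14.7% higher and 17.2% lower in ethanol and 15.2% and 19.1% under DP, while of the 91 genes 26 were higher and 5 lower in ethanol and 23 and 4 under DP.

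Cox7a1 differed most on the high side. Its ethanol values of 5.12 to 5.23 in wild type stood against 8.38 to 8.80 in dKO, a difference of 3.36 ± 0.12, or 10.3-fold (limma adjusted p = 3.21e-09). Under DP it was 2.58 ± 0.12, or 5.99-fold (limma adjusted p = 2.61e-08). Of the 7 skeletal muscle markers none was higher in dKO in ethanol and 2, Acta1 and Des, were lower (1 higher and 2 lower under DP), and of 5 heart muscle markers none was higher and 1 was lower in ethanol. Cox7a2 was higher by 0.31 ± 0.09 in ethanol and 0.39 ± 0.09 under DP. Its ethanol call was lost without the wild-type array of line 4 (limma adjusted p = 0.0635) and without the 2 deviating arrays (limma adjusted p = 0.0656). That call was also lost with median centring and in a fit of only the ethanol arrays (limma adjusted p = 0.0962 and 0.0826).

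Cox6b2, the testis isoform of complex IV subunit VIb, lay at 7.80, 7.66 and 8.27 for lines 3, 4 and 5 of wild type and at 9.09, 8.93 and 8.98 in dKO lines 1, 5 and 6 in ethanol. Under DP it lay at 7.76, 7.87 and 7.97 in wild type and at 8.76, 8.78 and 8.99 in dKO. The genotypes did not overlap, and the differences were 1.09 ± 0.14 (limma adjusted p = 5.59e-05) and 0.98 ± 0.14 (limma adjusted p = 0.000129). Its ubiquitous counterpart Cox6b1 changed by 0.18 in ethanol and 0.11 under DP and did not pass.

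Ndufa4l2 was the gene that differed most on the low side. The wild-type ethanol values of 6.43 to 7.65 stood against 3.76 to 4.27 in dKO, a difference of -2.86 ± 0.26, or 7.26-fold (limma adjusted p = 2.93e-06). Under DP the difference was -3.51 ± 0.26, or 11.4-fold (limma adjusted p = 5.53e-07), and the dKO values with DP stayed below all wild-type ethanol values. The dKO values lay close to the background level of 3.92, and that of line 6 in ethanol was below it. The size of these differences is therefore uncertain. Ndufa4 differed by 0.15 ± 0.09 in ethanol and 0.14 ± 0.09 under DP and did not pass. Cox6a2, the muscle isoform of subunit VIa, was lower by -0.58 ± 0.16 in ethanol and -0.44 ± 0.16 under DP at values between 3.85 and 4.99 on all arrays. In ethanol its call was lost without the dKO array of line 6 (adjusted p = 0.0598). Under DP it was lost without any of 5 of the 6 arrays, dKO line 1 being the exception (limma adjusted p between 0.0757 and 0.146). Median centring (limma adjusted p = 0.0834) and an intensity trend (limma adjusted p = 0.0566) also lost the DP call. Cox6a1, its ubiquitous counterpart, was higher by 0.31 ± 0.10 and 0.29 ± 0.10, a call lost in each treatment on leaving out line 3 or 4 of wild type or line 5 or 6 of dKO (adjusted p between 0.0524 and 0.105 in ethanol and between 0.0812 and 0.106 under DP). The ethanol call of Cox6a1 was also lost with median centring and with only the ethanol arrays (limma adjusted p = 0.101 and 0.0987).

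Of the other isoforms with restricted expression, Cox4i2, the lung isoform known as a HIF target in other cells, lay between 3.42 and 4.27 on all arrays, close to the background controls, and passed in no comparison. Its counterpart Cox4i1 differed by 0.15 ± 0.08 and 0.12 ± 0.08 between the genotypes and changed by -0.11 and -0.15 with DP. Cox8b, Cox8c and Cox7b2 did not pass in any comparison, whereas Cox8a, the ubiquitous subunit VIII, was higher by 0.36 ± 0.08 and 0.46 ± 0.08 in dKO. When the 8 isoforms with restricted expression were set aside, 33 of the remaining 83 genes were higher and none was lower in ethanol, with a median of 0.18. Under DP 24 were higher and 2 were lower, with a median of 0.19. The higher calls were 39.8% of the 83 in ethanol and 28.9% under DP, against 19.5% and 18.5% of all genes.

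**Figure D3:**
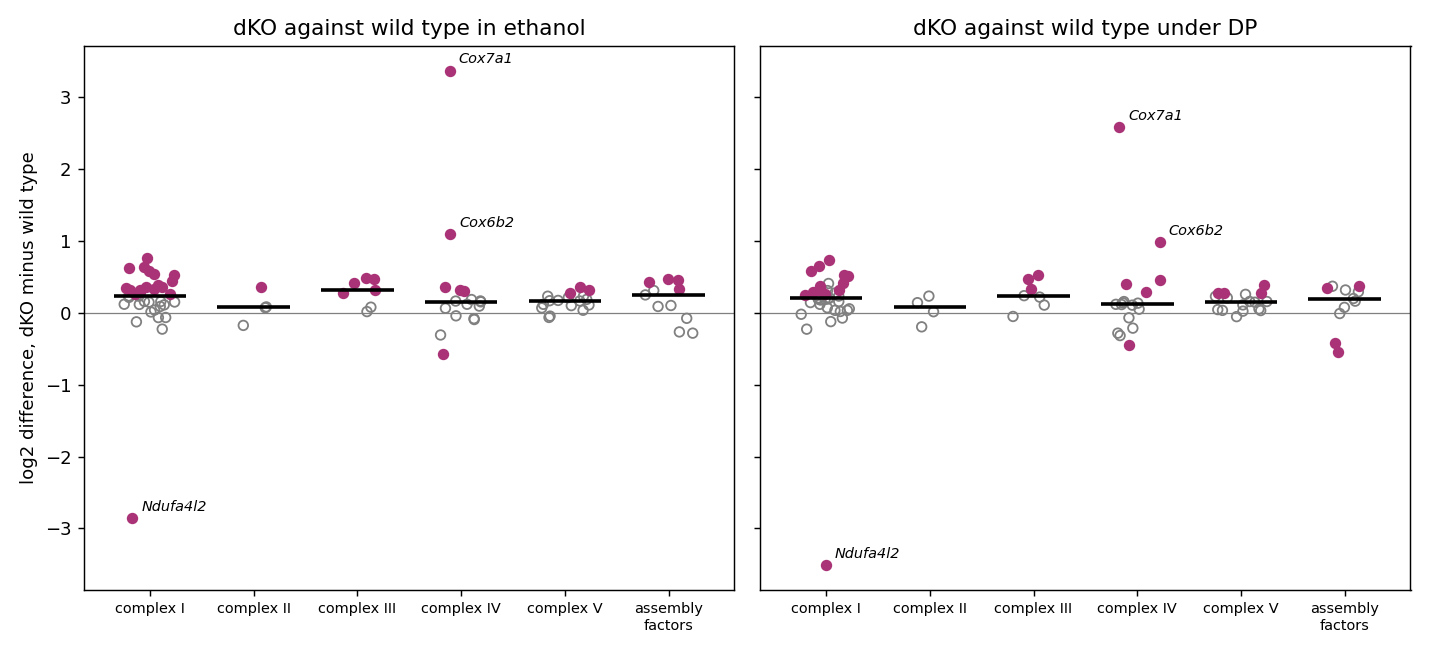
Log2 difference between dKO and wild type (vertical axis) for each of the 91 genes by complex, in ethanol (left) and under DP (right); filled points passed the test, open points did not, and bars are medians. Cox7a1, Cox6b2 and Ndufa4l2 lie far from the other genes, and the medians of all complexes lie between 0.07 and 0.32 above 0.

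Complex I, the NADH dehydrogenase, had 17 higher and 1 lower of 35 genes in ethanol and 12 higher and 1 lower under DP, with medians of 0.23 and 0.21. The higher calls were 48.6% and 34.3% of its genes, against 19.5% and 18.5% of all genes. The accessory subunit gene Ndufa3 lay between 11.3 and 11.5 in wild-type and between 12.0 and 12.2 in dKO ethanol arrays and differed by 0.77 ± 0.09 and 0.73 ± 0.09. Of the 6 measured core subunits that carry out the redox steps, 4 were higher in ethanol: Ndufs7 (0.64 ± 0.11), Ndufs3 (0.58 ± 0.09), Ndufs1 (0.53 ± 0.15) and Ndufv2 (0.43 ± 0.08). Under DP all but Ndufs1 passed (limma adjusted p = 0.0554, and 0.000547 without the 2 deviating arrays). The ethanol call of Ndufs1 was lost with cyclic loess (limma adjusted p = 0.0782) and without the dKO array of line 5 or 6 (limma adjusted p = 0.0609 and 0.056). It was also lost in a fit of only the ethanol arrays (limma adjusted p = 0.0831). Ndufv1, the subunit that binds NADH, differed by -0.07 ± 0.12 in both treatments. Ndufs7 lay at 9.75, 9.88 and 10.1 in wild-type and at 10.7, 10.4 and 10.6 in dKO ethanol arrays, without overlap.

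Ndufa1 and Ndufb11 are the X-linked genes among the 91, and both encode membrane-arm subunits of complex I. Ndufa1 lay between 11.2 and 11.4 on the wild-type and between 11.9 and 12.0 on the dKO ethanol arrays, a difference of 0.63 ± 0.08 (limma adjusted p = 5.52e-05). Ndufb11 differed by 0.53 ± 0.09, and its 3 probe sets gave 0.50 to 0.54. With Xist high on all wild-type and low on all dKO arrays, genotype and sex cannot be told apart for these genes. The other complex I genes that were higher in ethanol were Ndufa6, Ndufa9, Ndufa12, Ndufb3, Ndufb9, Ndufb10, Ndufc1, Ndufc2, Ndufv3 and Ndufs5-ps, by 0.25 to 0.39.

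In complex II, succinate dehydrogenase, Sdha, the flavoprotein subunit, was higher in ethanol by 0.36 ± 0.09 (limma adjusted p = 0.0061) and did not pass under DP (0.23 ± 0.09, limma adjusted p = 0.0576). Under DP it did pass in 5 alternatives (adjusted p between 0.0158 and 0.0472), among them the fit without the 2 deviating arrays (adjusted p = 0.0354). Sdhb, the iron-sulfur subunit, lay on the other side of 0 in both treatments, at -0.18 ± 0.10 and -0.20 ± 0.10, without passing. The membrane anchors Sdhc and Sdhd differed by 0.14 or less. Sdhd was read by 1 probe set with suffix x, a type that may cross-hybridise, at a mean of 5.93, against 9.87 for Sdhc. A difference of Sdhd may therefore be missed. Complex III, the cytochrome bc1 complex, had 5 of 7 genes (71.4%) higher in ethanol and 3 (42.9%) under DP, with medians of 0.32 and 0.24. Over all genes 19.5% and 18.5% were higher, and shares of only 7 genes are coarse. Uqcrb differed by 0.48 ± 0.11 and 0.53 ± 0.11, the core subunit gene Uqcrc2 by 0.47 ± 0.09 and 0.32 ± 0.09, and the Rieske iron-sulfur subunit gene Uqcrfs1 by 0.41 ± 0.08 and 0.47 ± 0.08. Uqcrfs1 lay at 9.85, 9.81 and 9.95 in wild-type and between 10.2 and 10.4 in dKO ethanol arrays. The other core subunit gene, Uqcrc1, differed by 0.01 and -0.05.

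Complex IV, cytochrome c oxidase, had 5 higher (29.4%) and 1 lower of 17 in each treatment, namely the isoform genes described above. Cox5a and Cox5b, for subunits of the complex in all tissues, differed by 0.09 and 0.16 in ethanol and did not pass, and Cox7a2l, which links complexes III and IV, differed by -0.04. Complex V, the ATP synthase, had 3 of 17 higher in ethanol and 4 under DP, with medians of 0.17 and 0.16. These calls were 17.6% and 23.5% of its genes, near the 19.5% and 18.5% of all genes. The genes that passed in both were Atp5h and Atp5j2, at 0.32 and 0.35 in ethanol. The catalytic subunit gene Atp5b differed by 0.18 ± 0.09 in ethanol and 0.28 ± 0.09 under DP, where it passed (limma adjusted p = 0.0363) but not without any of 5 of the 6 arrays, wild-type line 4 being the exception. Atp5a1 differed by 0.21 ± 0.09 and 0.16 ± 0.09 and did not pass.

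Of the 11 assembly factors, 4 were higher in dKO in ethanol (Ndufaf1, Ndufaf3, Sdhaf2 and Sdhaf4, by 0.32 to 0.47) and none was lower. Under DP Sdhaf2 and Sdhaf4 were higher, and Ndufaf5 and Ndufaf6 were lower. The higher calls were 36.4% of the 11 in ethanol and 18.2% under DP, against 19.5% and 18.5% of all genes. Ndufaf6 lay at 6.72, 6.77 and 6.62 for lines 3, 4 and 5 of wild type and at 6.22, 6.22 and 6.05 in dKO lines 1, 5 and 6 with DP, without overlap. The difference was -0.54 ± 0.13 (limma adjusted p = 0.00649). Of the 42 genes with more than 1 probe set, 16 were called in ethanol and 12 under DP, and in each of these all probe sets had the same sign.

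Lists of mitochondrial genes outside the 91 were counted in ethanol. Of 73 mitochondrial ribosomal protein genes 12 were higher and 8 lower in ethanol, with a median of 0.03, and of 13 citrate cycle enzymes 2 were higher and 1 lower, with a median of 0.12. Of 20 genes of iron-sulfur and heme synthesis 13 were higher and 1 was lower, with a median of 0.41. The heme synthesis gene Cpox was higher by 1.08 ± 0.11. Of 16 genes for cytochromes c and coenzyme Q 7 were higher and none lower, among them Coq10a (1.23 ± 0.14) and Coq7 (0.88 ± 0.16), which act in coenzyme Q handling and synthesis. Coq8a also passed, but its wild-type mean of 3.64 was not above the background level, against 5.16 in dKO, so no size is given. Cyc1 and Cycs, for cytochrome c1 and cytochrome c, differed by 0.18 ± 0.12 and -0.10 ± 0.10. Both act in the chain but their symbols fall outside the rule, so the complex III counts leave out cytochrome c1. Of 32 other assembly factors 12 were higher and 2 lower. Of 18 regulators of mitochondrial gene expression 4 were higher and 1 lower; Tfam, which packages mitochondrial DNA, was higher by 0.47 ± 0.10 and Pprc1, a coactivator of the PGC-1 family, was lower by -0.91 ± 0.12. Of the 2317 genes that averaged 9 log2 or more, 612 were higher and 494 lower in ethanol, with a median of 0.06. Among the 72 of the 91 with such a mean, 30 were higher and none was lower, with a median of 0.20. That is 41.7% higher, against 26.4% of the 2317. Under DP 23 of the 72 were higher (31.9%) and none was lower, against 26.0% higher and 22.7% lower of the 2317. With the dimmest 40% of all genes left out, 40.9% of the members kept were higher in ethanol and 39.8% under DP. Of all genes kept, 32.5% and 30.7% were higher.

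**Figure D4:**
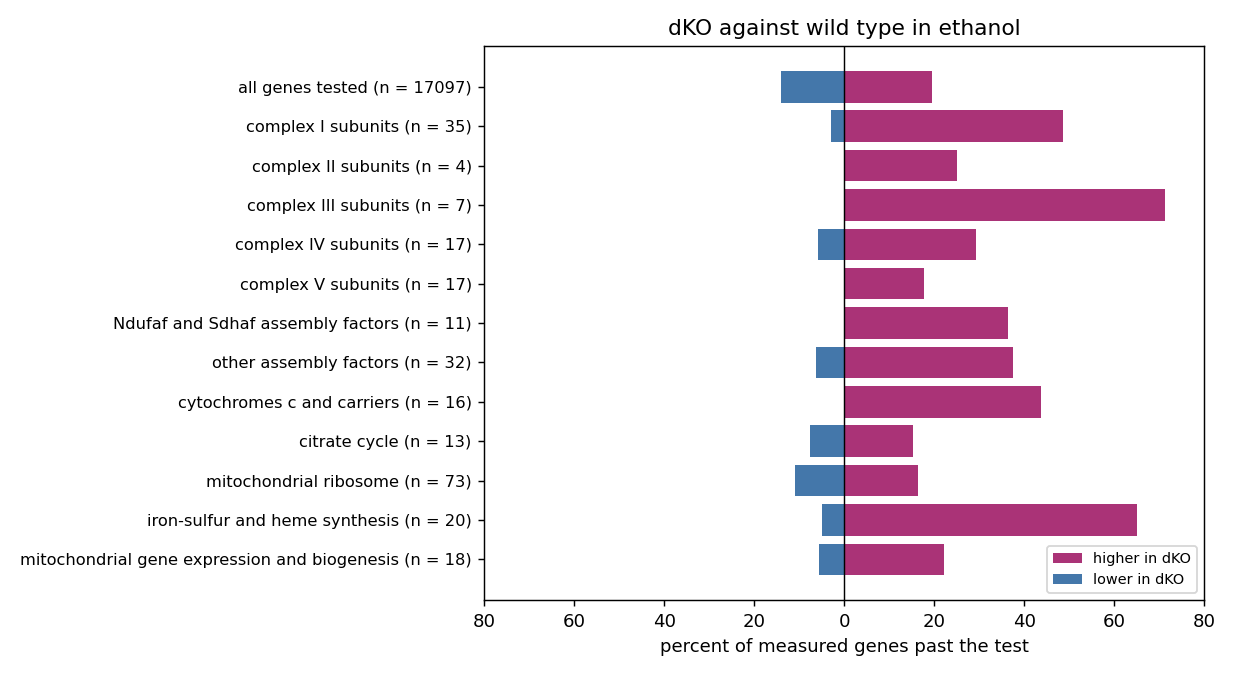
Percent of the measured genes of each list (horizontal axis) that passed the test as higher in dKO (right) or lower in dKO (left) in ethanol; n is the number of genes measured. All genes tested give 19.5% higher and 14.1% lower as the background.

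Promoter sequences are shown to set the gene of largest difference beside its ubiquitous counterpart and beside a subunit gene with 3 matches to a motif known from genes of the respiratory chain. They are the 250 bases before the transcript start that the RefSeq promoter table gives, 5′ to 3′ on the gene's own strand, in build GRCm38.p6. For Cox7a2 that start lies inside the span RefSeq lists for the gene, and for Cox7a1 and Sdha it is the listed start of the gene. Capitals mark matches on either strand to the core of NRF1, a factor of respiratory genes (GCGCA and GCGC with 1 base of any kind between them), of ETS factors such as GABPA (CCGGAAG), of YY1 (AAGATGGC) and of HIF (ACGTG or GCGTG); none of these matches overlapped another. Cox7a1 lies at chr7:30183921-30184170 on the + strand, Cox7a2 at chr9:79759854-79760103 on the - strand and Sdha at chr13:74350241-74350490 on the - strand.
Cox7a1: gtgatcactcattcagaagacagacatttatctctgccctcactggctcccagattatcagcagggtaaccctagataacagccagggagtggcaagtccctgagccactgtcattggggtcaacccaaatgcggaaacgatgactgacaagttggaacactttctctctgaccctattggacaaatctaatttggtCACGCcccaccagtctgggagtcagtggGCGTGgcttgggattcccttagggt
Cox7a2: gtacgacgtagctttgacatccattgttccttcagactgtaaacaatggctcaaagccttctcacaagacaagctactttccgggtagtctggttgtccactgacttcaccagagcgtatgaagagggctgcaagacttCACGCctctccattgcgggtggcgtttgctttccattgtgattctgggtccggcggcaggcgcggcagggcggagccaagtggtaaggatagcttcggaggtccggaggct
Sdha: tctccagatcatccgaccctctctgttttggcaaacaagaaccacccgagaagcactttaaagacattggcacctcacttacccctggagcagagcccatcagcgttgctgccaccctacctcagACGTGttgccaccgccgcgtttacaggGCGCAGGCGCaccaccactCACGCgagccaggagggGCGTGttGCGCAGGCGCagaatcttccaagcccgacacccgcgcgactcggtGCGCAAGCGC
The Cox7a1 window held 2 matches to GCGTG and Cox7a2 held 1, while Sdha held 3 matches to the NRF1 core, 1 to ACGTG and 2 to GCGTG. Promoters of 74 of the 91 genes were matched. The NRF1 core was found in 12 of the 74 (16.2%), against 3.86% of 27025 promoters of the same length, and the ETS core in 13 (17.6%), against 7.05%. ACGTG was found in 16 (21.6%), against 16.6%, and GCGTG in 31 (41.9%), against 28.2%. AAGATGGC was in none of the 74 and in 1.59% of all promoters. A match is a description of the letters and not of binding. Ndufa4l2 and Cox4i2 were not among the matched promoters.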

How the data were processed

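RNA of 12 MEF cultures (100 ng each, per the labels) was measured on 1 array per sample. The deposited values are log2 RMA values per probe set, for which the submitters' processing notes name Expression Console 1.1. RMA can understate changes of dim genes. After 104 controls were removed from 45141 probe sets, 28898 listed 1 gene symbol and were kept (28689 symbols were updated through the gene identifier). The probe set of highest mean stood for each of 17097 genes. Of the 91 genes, 42 had several probe sets, and 9 are represented by a probe set with suffix s and 6 by one with suffix x, types that may cross-hybridise.

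Limma 3.58.1 in R 4.3.3 (lmFit, eBayes) was fitted over 12 arrays with 4 group means, no block and no dim filter, for 5 contrasts, and was tested on simulated data. Alternatives were a block for MEF line, an intensity trend, cyclic loess, centring on the median, a filter on the dimmest 40% of genes, probe set means, a fit of only the arrays compared, and leaving out the deviating arrays or each array.

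The members, lists and alternatives were chosen with earlier results of these data known. Named with values were up to 12 called members of largest change per contrast (at least the 4 largest), a set of isoforms, core subunits and X-linked members, and called genes of other lists. Members named outside this rule (Cox6b1, Cox8c, Cox7b2, Ndufv2, Ndufv3, Uqcrc1, Atp5h, Atp5j2, Sdhaf2, Sdhaf4 and genes in lists of names) were added after their values were seen. Ndufs4 was added for its dimmer probe set, likewise after its values were seen. Each numbered line received both treatments, per the labels, which pairs its arrays. Deviations from group means of a line's arrays correlated at 0.42, 0.06 and 0.33 in wild-type lines 3, 4 and 5 and at 0.04, 0.32 and 0.36 in dKO lines 1, 5 and 6.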

Additional observations from a re-analysis of the deposited data

How the results depend on the processing

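For DP in wild type the count of 3 called genes became 5 without the 2 deviating ethanol arrays, and in dKO the count of 0 became 1 with an intensity trend and 1 without the 2 deviating arrays. Over all genes, 3.87% rose and 2.34% fell in wild type without those arrays, against 3.05% and 1.67% with them. In dKO 1.26% rose and 0.404% fell without them, against 1.01% and 0.491%. The dKO against wild type count in ethanol, 37 genes, became 20 with median centring and 17 with only the arrays compared; the cause was not tested, but the last fit has fewer arrays. Leaving out each array in turn gave 2 to 3 genes for DP in wild type, 0 for DP in dKO and for the difference of DP effects, 21 to 41 for genotype in ethanol and 19 to 25 for genotype under DP. The shares of all genes called in those fits are not given here. With a replicate block for the line the counts were 3, 0, 36, 29 and 0 for DP in wild type, DP in dKO, genotype in ethanol, genotype under DP and the difference, and no count moved by over 1.5 times. Median changes of the 91 genes moved by less than their spread in the alternatives where they were computed; on leaving out each array the DP median ran from -0.11 to -0.05 in wild type and from -0.14 to -0.06 in dKO. The number of arrays and the dim signal of Cox4i2, Cox7b2 and Cox8b limit what can be seen.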
